A study of Mus musculus with 182 samples.

Results

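The 45 class II high cells and the 45 class II low cells described here were the extremes of 182 single germinal centre B cells, ranked by their RNA for the MHC class II antigen-presenting molecule. For each cell a class II score was taken as the mean of log2(value + 1) over 4 genes: Cd74 and the chain genes H2-Aa, H2-Ab1 and H2-Eb1. Cells were ranked separately among cells 1 to 96 (set 1, 96 cells) and among cells 97 to 182 (set 2, 86 cells), because the floor of the deposited values differed between these sets. The class II high cells were the highest 24 cells of set 1 and the highest 21 of set 2, and the class II low cells were the lowest 24 and the lowest 21. The other 92 cells lay between. The cells were chosen by their measured values of these 4 genes, so every difference between high and low cells is given as a description with no p-value.

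All cells came from the spleens of C57BL/6 mice immunized with 100 μg of NP(23)-KLH, a hapten on a carrier protein, in alum with 1 μg of LPS, and were taken on day 13. High and low cells shared this strain, immunization, time and sort, in which cells binding antibodies to B220, Fas and GL7 were kept after T cells, CD11c+ cells and IgD+ cells had been depleted. The labels add binding of NP to the sorted phenotype, which the series' design text lists only as a stain. Each cell was captured on a Fluidigm C1 chip and gave 1 library. The labels name no animal for any cell, so the cells count as 1 biological sample, and the 2 sets are only column ranges of the table, with no date or chip given.

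MHC class II molecules carry peptides from internalized antigen to the cell surface, where CD4+ T cells read them. H2-Aa and H2-Ab1 encode the alpha and beta chains of I-A, and H2-Eb1 encodes the beta chain of I-E, whose alpha chain gene is a pseudogene in C57BL/6 mice. Cd74 encodes the invariant chain, which fills the groove during transport. The H2-DM heterodimer then exchanges the remaining invariant chain peptide for antigen, and the H2-O heterodimer restrains H2-DM in B cells. Germinal centre B cells depend on this pathway in the light zone, where follicular helper T cells select those that present most peptide.

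Genes of the family share an upstream control region, the S-X-Y module, which is read by the RFX and NF-Y complexes together with the coactivator Ciita. The RefSeq promoter windows (GRCm38.p6, from 250 bases before to 50 after each gene's start) are shown in part for 7 class II genes on chromosome 17, to show this common element beside genes whose RNA differed between the cells and genes whose RNA did not pass the threshold. Each run ends just after the letters TGATTGG, the core of the Y box, which are in capitals, and each is written 5′ to 3′ on the strand of its gene.
H2-Aa: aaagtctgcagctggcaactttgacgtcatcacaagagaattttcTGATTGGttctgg
H2-Eb1: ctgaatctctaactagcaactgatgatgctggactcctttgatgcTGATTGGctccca
H2-Eb2: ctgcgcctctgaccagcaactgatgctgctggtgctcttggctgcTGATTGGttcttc
H2-DMb1: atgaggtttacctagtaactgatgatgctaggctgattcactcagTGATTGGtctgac
H2-DMb2: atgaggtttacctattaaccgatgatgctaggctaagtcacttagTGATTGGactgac
H2-Oa: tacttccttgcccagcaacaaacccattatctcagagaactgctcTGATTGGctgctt
H2-Ob: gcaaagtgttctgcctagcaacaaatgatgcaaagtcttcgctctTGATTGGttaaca
The runs lie at chr17:34287861-34287918 on the minus strand for H2-Aa, and on the plus strand at chr17:34305761-34305818 for H2-Eb1, chr17:34325528-34325585 for H2-Eb2, chr17:34153083-34153140 for H2-DMb1, chr17:34145112-34145169 for H2-DMb2, chr17:34092289-34092346 for H2-Oa and chr17:34238801-34238858 for H2-Ob. Counted from the transcript start that each window was built on, the capitals began between 45 bases before it, in H2-Oa, and 102 bases before it, in H2-Eb2. For H2-DMb2 and H2-Eb2 RefSeq's gene begins further upstream, at bases 34143229 and 34325503, so these runs lie within the annotated gene. TGATTGG on either strand was found in 2568 of all 32851 windows of 300 bases, 7.82%. Both windows of H2-DMa lacked these exact letters. A match is a description of the letters and not a measured site.

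The number of genes found in a cell overlapped widely between high and low cells. The count of genes above their floor was lowest 1904, median 2954 and highest 4495 in class II high cells of set 1, against 2130, 2751 and 4378 in class II low cells. In set 2 it was 1428, 2401 and 5149 in high cells, against 980, 2215 and 3269 in low cells. High cells thus had medians higher by 203 and 186 genes, within ranges that overlapped. In set 2, 2 low cells stood apart, with 995 and 1121 genes at a value of 1 or more, and without them the median of high cells was higher by 89 genes. Read counts per cell were not used here, so the sequencing depth of a cell is unknown. The B cell identity of both kinds of cell was checked by its markers: Cd79b, a chain of the B cell receptor, was detected (value of at least 1) in 44 of 45 high and 44 of 45 low cells. All 45 high and all 45 low cells had 3 or more of 20 germinal centre B cell genes, with a median of 12 in high and 10 in low cells.

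At least 1 of 7 T cell markers was detected in 6 high and 11 low cells, and at least 1 of 15 dendritic cell and myeloid markers in 20 high and 15 low cells. Il7r is among these T cell markers and also among the precursor genes described below. It was detected in 1 high and 8 low cells. No high and no low cell had 2 or more of the T cell markers, of 4 NK markers or of 4 stromal markers, and 1 high and 1 low cell had 2 of 3 erythroid markers. Of the dendritic cell and myeloid markers, 2 or more were detected in 4 high and 8 low cells, and the summed level of these 15 genes ran from 0.199 to 1587 in high cells, against 0.199 to 1165 in low cells. In high cells 5 of these 15 markers were detected in no cell, against 6 in low cells. Their part in the differences was not tested.

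The class II score showed no gap at the limits that set the high and low cells. In set 1 the scores reached 12.25, the last high cell stood at 9.96 and the next cell below it at 9.87. At the other end of set 1 the last cell above the low group was at 6.48, the first low cell at 6.39, and the lowest 3 cells at 3.41, 1.53 and 0, the last with a value of 0 for all 4 genes. In set 2 the highest cell was at 12.42, the last high cell at 8.82 and its neighbour at 8.78. The low group of set 2 began at 6.19, where its neighbour above also stood to that precision, and ended at 2.60.

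**Figure D1:**
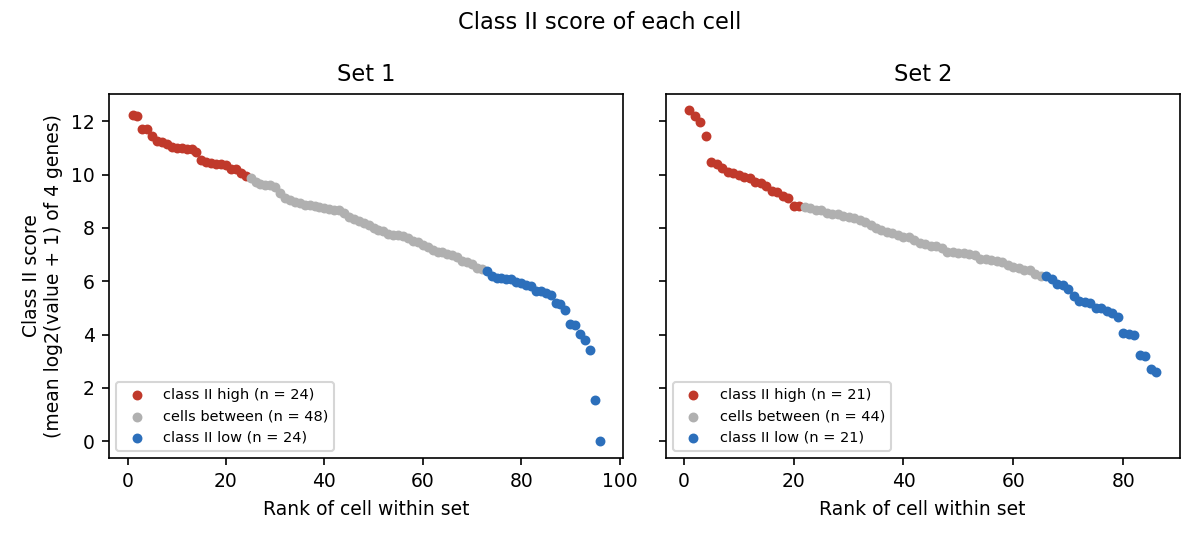
Class II score of each cell, the mean log2(value + 1) of the 4 score genes, against its rank within set 1 (left) and set 2 (right). Points are single cells, red for class II high, grey for cells between and blue for class II low, and the scores span 12.25 to 0 in set 1, where the lowest 2 cells stand apart at 1.53 and 0, and 12.42 to 2.60 in set 2.

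The 4 genes that set the score differed unequally between the cells they chose. H2-Aa, the alpha chain, was 4.67 at its lowest, 1386 at the median and 7692 at its highest in class II high cells, against 0, 2.15 and 258 in class II low cells. It was detected in all 45 high cells and in 27 low cells. In set 1 every high cell lay above every low cell for H2-Aa, and in set 2 14 of 21 did.

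H2-Ab1, the beta chain of I-A, was 244, 2794 and 11914 in high cells (lowest, median, highest), against 0, 63.4 and 1574 in low cells, and was still detected in 43 of 45 low cells. H2-Eb1 was 14.8, 786 and 3106 in high cells, against 0, 3.17 and 475 in low cells, where 31 cells had it. Low cells thus mostly retained some H2-Ab1, while H2-Aa and H2-Eb1 were at or near their floor in many of them.

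Cd74, the invariant chain, overlapped most. Its values were 50.0, 5106 and 11917 in high cells, against 0, 778 and 7881 in low cells, and 43 low cells had it. The highest Cd74 value of each set recurred exactly in several cells. It was 11917 in cells 6, 34 and 44 of set 1, among others, and 9876 in cells 114, 121 and 123 of set 2, among others. Cd74 thus did not separate these cells, and the source of the equal values was not tested. In mean log2(value + 1), high cells exceeded low cells by 2.97 in set 1 and 3.19 in set 2 for Cd74, against 8.27 and 6.43 for H2-Aa, 5.47 and 5.23 for H2-Ab1 and 6.97 and 6.85 for H2-Eb1. Across all cells of a set, H2-Aa ranked with H2-Ab1 at a Spearman rho of 0.58 over the 96 cells of set 1. Over the 86 cells of set 2 the rho was 0.26. All genes of a cell share its library depth and normalization.

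Genes were compared between high and low cells outside the score. A gene was called higher, or lower, when its mean log2(value + 1) differed by 1 or more in the same direction in each set. Of 5405 genes that at least 10% of the cells had, 96 were called higher in class II high cells, which is 1.78%, and 46 were called lower, which is 0.851%. With set 1 alone 7.99% were higher and 5.42% lower, and with set 2 alone 8.68% and 6.31%. The median difference over all 5405 genes was 0.02. Without the 2 low cells of set 2 that had the fewest genes, 1.76% were higher and 0.981% lower, and 128 of the 142 calls were kept. Of the genes named below, Pou2af1, Cd37, Ncl, Cdk4 and Wdr1 then missed the threshold in set 2, with differences of 0.94, 0.93, -0.96, 0.83 and 0.72.

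The remaining class II genes were next examined, since they belong to the same pathway but did not enter the score. Of 8 listed genes for other class II chains and peptide loading, 7 were in the table and 6 were frequent enough to compare. H2-DMa, H2-DMb2 and H2-Oa were called higher in class II high cells and none was called lower, beside 1.78% and 0.851% of all genes. The median difference of the 6 was 1.10 in set 1 and 1.44 in set 2, beside 0.00 and 0.05 over all genes compared.

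H2-DMa, the alpha chain of the peptide exchanger H2-DM, had a median of 14.4 and a highest value of 963 in high cells, against 0.292 and 926 in low cells, with 0 as the lowest value on both sides. Its transcript was detected in 31 of 45 high cells, 68.9% (95% interval 53.4 to 81.8), and in 18 of 45 low cells, 40.0% (25.7 to 55.7). These intervals are exact Clopper-Pearson intervals and cover counting error over cells only. In mean log2(value + 1), H2-DMa was 5.11 ± 3.42 in high cells of set 1 (SD, n = 24 cells), against 2.39 ± 3.04 in low cells (SD, n = 24). In set 2 it was 2.95 ± 3.17 in high cells (SD, n = 21), against 1.44 ± 2.14 in low cells (SD, n = 21). The groups overlapped, with 5 low cells of set 1 and 6 of set 2 above the median of the high cells.

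H2-DMb2, a beta chain of H2-DM, had a median of 8.99 and a highest value of 732 in high cells, against 0.152 and 807 in low cells. In set 1, 17 high and 10 low cells had it, and in set 2, 14 high and 4 low cells. The mean differences were 1.89 and 3.28 in the 2 sets. In set 2, 8 of 21 high cells lay above every low cell.

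H2-DMb1, the other beta chain gene, did not pass the threshold. Its median was 7.20 in high cells, against 1.01 in low cells, and its differences were 0.14 and 0.29, with 28 high and 23 low cells positive. Transcripts of H2-DMb2 and H2-DMb1 share 254 stretches of 75 bases, the read length, which is 14.6% of those of H2-DMb2 and 19.1% of those of H2-DMb1, so reads could be assigned to the wrong copy and each of the pair is uncertain.

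H2-Oa, the alpha chain of the H2-DM inhibitor H2-O, had a median of 3.93 and a highest value of 3299 in high cells, against 0.0952 and 2903 in low cells. It was detected in 29 of 45 high cells, 64.4% (48.8 to 78.1), and in 13 low cells, 28.9% (16.4 to 44.3). The differences were 1.51 and 2.05. H2-Ob, the beta chain that pairs with it, had differences of 0.44 and -0.05, and 33 high and 34 low cells had it. Of the H2-O chains, the alpha chain gene thus passed the threshold and the beta chain gene did not, while both promoters printed above hold TGATTGG.

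H2-Eb2, a neighbouring beta chain gene of the I-E type, was detected in 15 of 45 high cells, 33.3%, and in 2 of 45 low cells, 4.44% (0.543 to 15.1). Its highest value was 278 in high cells, against 21.8 in low cells, and its differences were 0.68 and 1.37, under the threshold in set 1. The pseudogene H2-Ea-ps was detected in 1 high cell and in no low cell.

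**Figure D2:**
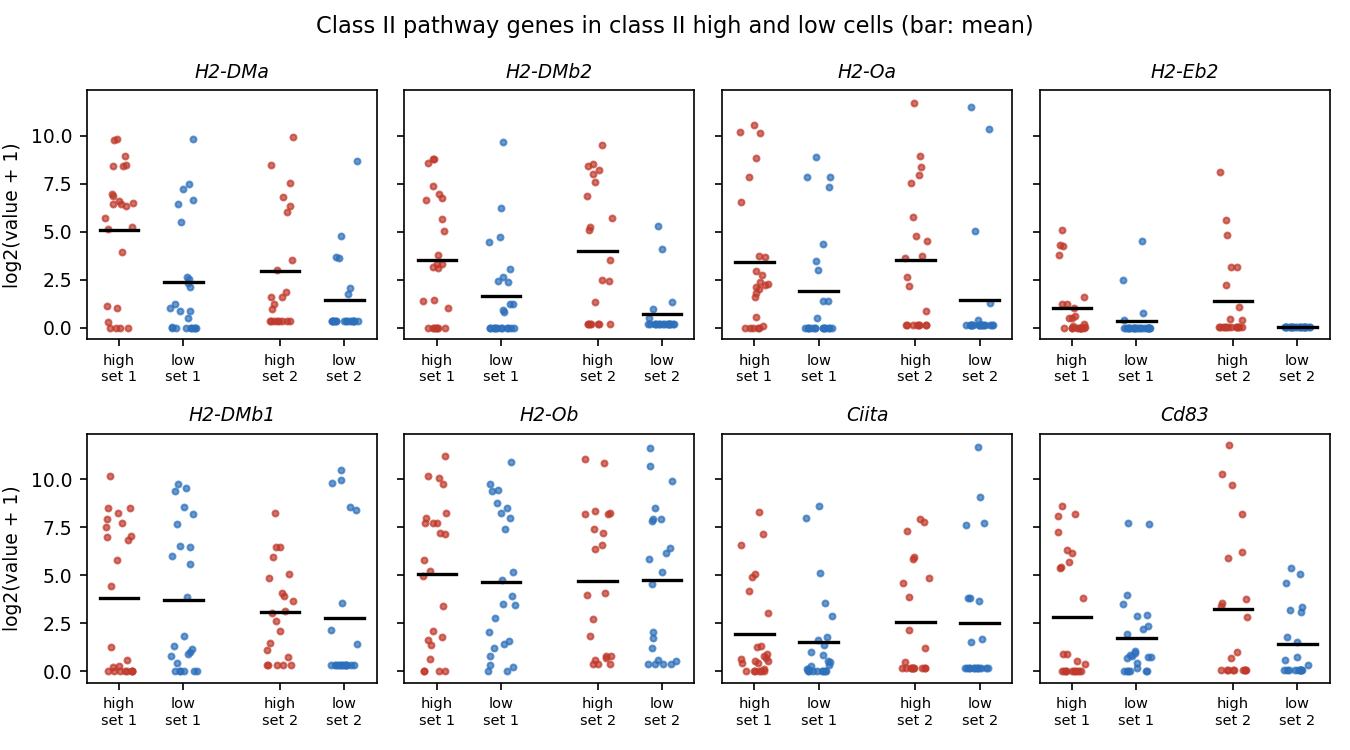
Values of 8 class II pathway genes in single cells as log2(value + 1), for class II high cells (red) and class II low cells (blue) of each set, with the mean as a black bar. H2-DMa, H2-DMb2 and H2-Oa have higher means in high cells in both sets, while H2-DMb1, H2-Ob and Ciita differ by less than 1 in each set.

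Regulators of class II transcription showed no common direction. Of 16 listed genes 12 were compared, 1 was called higher and 1 lower, beside 1.78% and 0.851% of all genes. The list medians were 0.10 and -0.06. Ciita, the coactivator that sets class II transcription in most cells, was detected in 19 high and 18 low cells, with differences of 0.42 and 0.05. Rfx5, a subunit of the RFX complex on the X box, had 0.48 and -0.37. Irf8, a transcription factor of germinal centre B cells, had 1.50 in set 1 and 0.28 in set 2.

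Pou2af1, a coactivator of the octamer-binding factors of B cells, was the gene called higher, by 1.09 and 1.16, with a median of 16.7 in high cells and 2.93 in low cells. Pax5, the B lineage identity factor, was the gene called lower, at -1.36 and -1.97. It was detected in 12 high and 24 low cells, at a highest value of 214 in high cells and 6672 in low cells.

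Antigen processing genes were split in direction as well. Of 25 listed genes 17 were compared, and only Cd83 passed the threshold, beside 1.78% of all genes called higher and 0.851% called lower. Of the 17, 4 were positive in both sets and 3 negative in both, with no such share taken over all genes. Cd83, which stabilizes surface class II and marks the light zone, differed by 1.08 and 1.79. Similar numbers of cells had it, 20 high and 18 low, and its highest value was 3480 in high cells, against 211 in low cells. In set 1, 16 of 24 low cells lay above the median of the high cells. With the upper against the lower 50% of each set the mean difference of Cd83 was 0.0083, far under the threshold. Ctss, the protease that trims the invariant chain, differed by 1.43 in set 1 and -0.13 in set 2. The ubiquitin ligase genes March1 and March8, which remove class II from the surface, were not matched, since 20 symbols in the table had been turned into dates. A row with the date form 1-Mar was called higher, by 1.51 and 1.18, but more than one gene symbol turns into that date and it is not named here.

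MHC class I presentation was examined as the parallel pathway. Of 21 genes compared, 2 were called higher and none lower, beside 1.78% and 0.851% of all genes, with list medians of -0.09 and -0.04. Psmb9, an inducible subunit of the immunoproteasome that lies within the class II region, was higher by 2.25 and 1.40 and was detected in 25 high and 10 low cells. Psme1, a subunit of the proteasome activator, was higher by 1.51 and 1.96, with 34 high and 22 low cells positive. Tap1, the peptide transporter, had 1.02 and 0.78. B2m, the class I light chain, had -1.33 and -0.67, with a median of 164 in high cells and 353 in low cells.

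**Figure D3:**
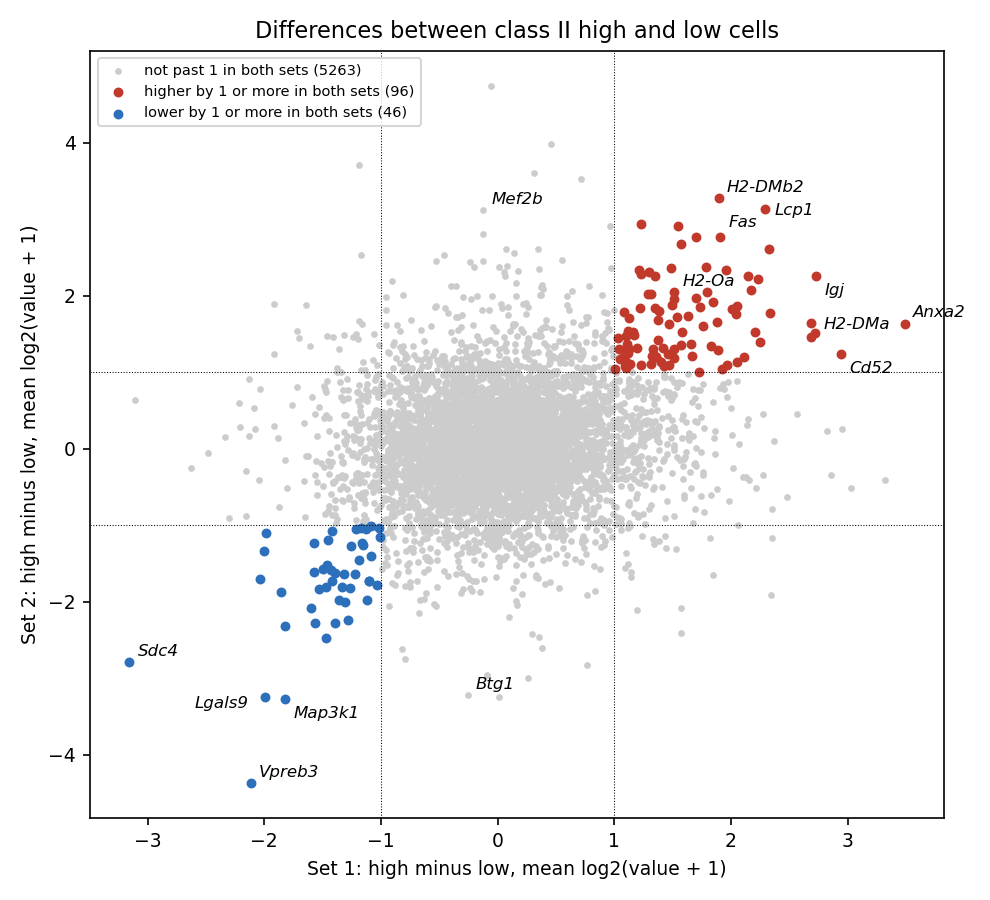
Difference in mean log2(value + 1), class II high minus class II low cells, in set 1 (horizontal) and set 2 (vertical), for 5405 genes. Red points are the 96 genes higher by 1 or more in both sets, blue points the 46 lower by 1 or more in both, and dotted lines mark differences of 1 and -1.

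The 15 genes with the largest mean difference among those called higher were Lcp1, H2-DMb2, Anxa2, Igj, Cnn2, Fas, Ms4a1, Pik3c2b, Sh3bgrl3, Birc5, Ppib, Nedd8, Nuggc, Atp5e and H2-DMa. Lcp1, which encodes the actin-bundling protein L-plastin, stood first. Its values were 0.446, 59.6 and 3423 in high cells (lowest, median, highest), against 0, 3.39 and 1357 in low cells. In mean log2(value + 1) it was 6.16 ± 3.26 in high cells of set 1 (SD, n = 24), against 3.87 ± 3.42 in low cells (SD, n = 24), and 6.45 ± 3.22 in high cells of set 2 (SD, n = 21), against 3.32 ± 2.96 in low cells (SD, n = 21). In set 1, 21 of 24 high cells lay above the median of the low cells, and in set 2 19 of 21 did.

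Cnn2 and Anxa2, which also bind actin, were among these 15 but are not on the actin list. Cnn2, calponin 2, was higher by 2.33 and 2.62 and had a median of 154 in high cells, against 13.3 in low cells. Anxa2, an annexin that also binds membranes, was higher by 3.49 and 1.64, and in set 1 14 of 24 high cells lay above every low cell. Of 26 listed actin genes, all compared, 3 were called higher (Lcp1, Wdr1 and Crip1) and 1 lower (Vim), beside 1.78% and 0.851% of all genes, with list medians of 0.66 and 0.24. Vim, the intermediate filament vimentin, was lower, at -1.47 and -1.51 and was detected in 11 high and 24 low cells.

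Of 23 listed genes of the B cell receptor complex and its signalling 3 were called higher and none lower, beside 1.78% and 0.851% of all genes. Of these 23, 10 were positive in both sets and 7 negative in both, with no such share taken over all genes. Ms4a1, which encodes CD20, was 3.07, 442 and 3194 in high cells, against 0, 96.5 and 21037 in low cells, and was higher by 1.70 and 2.77. Ptprc, the receptor phosphatase CD45 whose B cell form is B220, was higher by 1.38 and 1.68. Cd37, a tetraspanin, was higher by 1.96 and 1.10. Pik3c2b, a class II phosphoinositide kinase that is not on this list, was detected in 40 high and 25 low cells and was higher by 1.55 and 2.91.

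Igj, the joining chain of polymeric antibody, was the sole plasma cell gene of 7 compared that passed, beside 1.78% of all genes called higher. It was detected in 35 of 45 high cells, 77.8% (62.9 to 88.8), and in 14 low cells, 31.1% (18.2 to 46.6). The share was higher in high cells in each set, with 21 high and 9 low cells in set 1 and 14 high and 5 low cells in set 2. The differences were 2.73 and 2.26, at a median of 8.56 in high cells and 0.118 in low cells.

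Of 20 germinal centre B cell genes compared, 2 were called higher, Fas and Rgs13, and 1 lower, Pax5, beside 1.78% and 0.851% of all genes. The list medians were 0.61 and 0.28. The summed level of the 20 genes differed in direction between the sets. Its median over cells was 1545 in high and 1275 in low cells of set 1, and 964 in high and 2429 in low cells of set 2. Pooled, it was 1263 in high cells and 1642 in low cells, so the lower pooled value of high cells rested on set 2. Fas, the death receptor used in the sort itself as a surface stain, was detected in 26 high and 16 low cells and was higher by 1.91 and 2.77. The set values of Fas were 15 high and 13 low cells in set 1 and 11 high and 3 low cells in set 2. Rgs13, a regulator of chemokine receptor signalling, was higher by 1.23 and 2.29. In set 1, 12 high and 12 low cells had Rgs13, and in set 2, 16 high and 5 low cells, so the pooled counts of 28 and 17 rested on set 2.

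Nuggc, a germinal centre GTPase gene, was detected in 32 high and 21 low cells, and was higher by 1.57 and 2.68, although set 1 had 17 high and 18 low cells positive. Bcl6, the master repressor of the programme, was detected in 31 high and 18 low cells, with differences of 0.62 and 0.13, and of 0.50 and -1.10 without the cells with precursor genes described below. Mef2b, its activator, was -0.12 in set 1 and 3.12 in set 2, and is named here after its values were seen because the sets disagreed so widely.

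**Figure D4:**
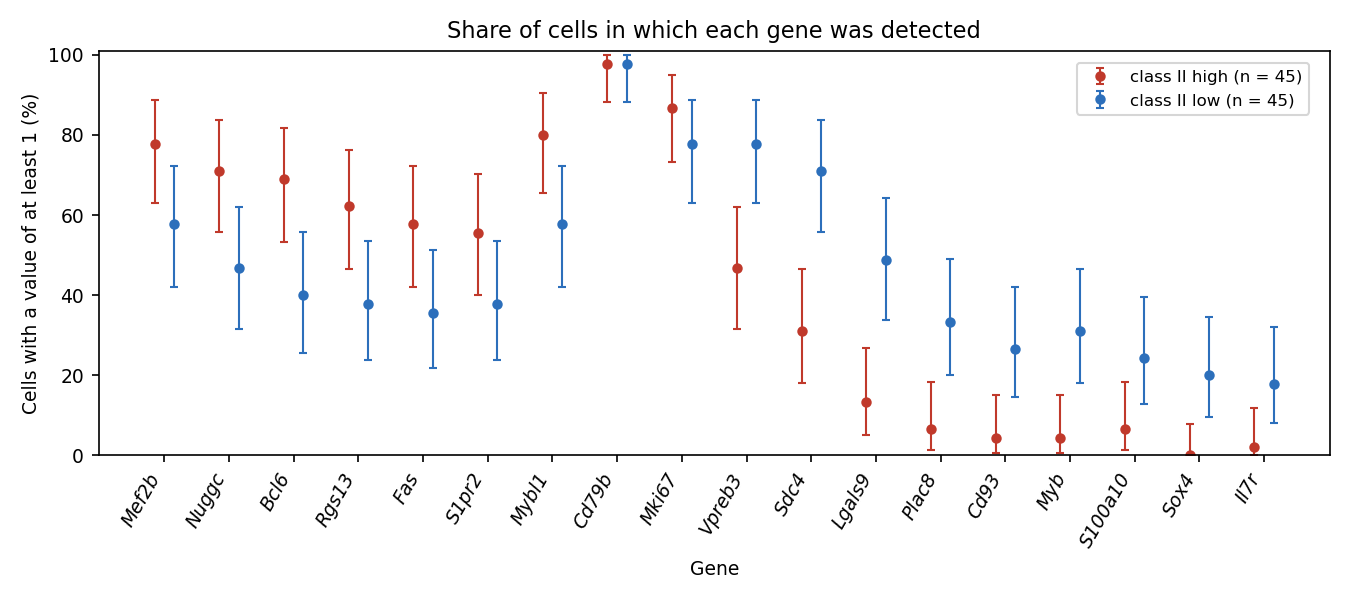
Share of class II high (red) and class II low cells (blue) with a value of at least 1 for 18 genes, with exact 95% intervals over 45 cells on each side. The germinal centre genes shown at the left have higher pooled shares in high cells. Ebf1 (30 high and 36 low cells) and Pax5, listed germinal centre genes that are not shown, have lower pooled shares in high cells. In set 1 alone Mef2b (18 high and 19 low cells), Nuggc (17 and 18) and Rgs13 (12 and 12) were not higher in high cells. Cd79b has a share near 100% in both. The genes at the right, several of them chosen after their values were seen, have higher shares in low cells.

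Rik clones and small RNA rows were left out of the ranking of genes called lower. The 15 others with the largest difference were Vpreb3, Sdc4, Lgals9, Map3k1, Dusp6, S100a10, Mat2a, Tug1, Vars, Btg2, Unc93b1, Marcks, Znf512b, Pax5 and Sumo3. Vpreb3, which associates with newly made immunoglobulin chains in B lineage cells, was lower, at -2.12 and -4.37. Its median was 0.876 and its highest value 7946 in high cells, against 47.3 and 24783 in low cells. Cells with it numbered 21 high and 35 low. In set 2 its mean log2(value + 1) was 2.92 ± 3.46 in high cells (SD, n = 21), against 7.29 ± 5.40 in low cells (SD, n = 21).

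Sdc4, a cell surface heparan sulfate proteoglycan, was detected in 14 of 45 high cells, 31.1% (18.2 to 46.6), and in 32 low cells, 71.1% (55.7 to 83.6). It was lower, at -3.16 and -2.79, with a highest value of 3466 in high cells and 3466 in low cells. Lgals9, the lectin galectin-9, was detected in 6 high and 22 low cells and was lower, at -1.99 and -3.25. In set 2, 1 high cell and 11 low cells had it. Dusp6, a phosphatase of the ERK kinases, was detected in 9 high and 25 low cells and was lower, at -1.82 and -2.32. Map3k1, a kinase upstream of JNK, was detected in 19 high and 32 low cells and was lower, at -1.82 and -3.27. Marcks, a membrane substrate of protein kinase C, was detected in 2 high and 17 low cells.

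Because Vpreb3 belongs to early B cell development, 10 genes of precursor and immature B cells were looked up after these values had been seen, and no test was made on them. Cd93, a marker of immature B cells, was detected in 2 high and 12 low cells. Myb, a transcription factor of progenitors, was detected in 2 high and 14 low cells. Sox4 was detected in 0 high and 9 low cells, and Il7r, a chain of the interleukin 7 receptor, in 1 high and 8 low cells. The recombinase genes Rag1 and Rag2 were detected in no high cell and in 5 and 4 low cells, all of set 2, and Vpreb1, a surrogate light chain gene, in 0 high and 4 low cells. Igll1, the other surrogate light chain gene, was detected in 2 high and 5 low cells, and Dntt, which adds bases at recombined joints, in 2 high and 3 low cells. The interval for 0 of 45 cells reached 7.87%. Erg was detected in no cell of either side.

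Several of these genes were often found in the same low cell. In all, 2 of 45 high cells, 14 of 45 low cells and 8 of the 92 cells between had 2 or more of the 10 genes, and 0 high and 11 low cells had 3 or more. The low cells with 2 or more were spread over the sets, 6 of 24 and 8 of 21. All 14 of them had Cd79b, and 9 had the proliferation marker Mki67. In 13 of the 14 Vpreb3 was detected, in 13 Sdc4 and in 13 Lgals9, whereas Fas was detected in 3 and Rgs13 in 2. Their median count of genes above floor was 2680, against 2359 in the other 31 low cells, and their median class II score was 3.91, against 5.54. The other 31 low cells had Fas in 13, Rgs13 in 15 and Lgals9 in 9.

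**Figure D5:**
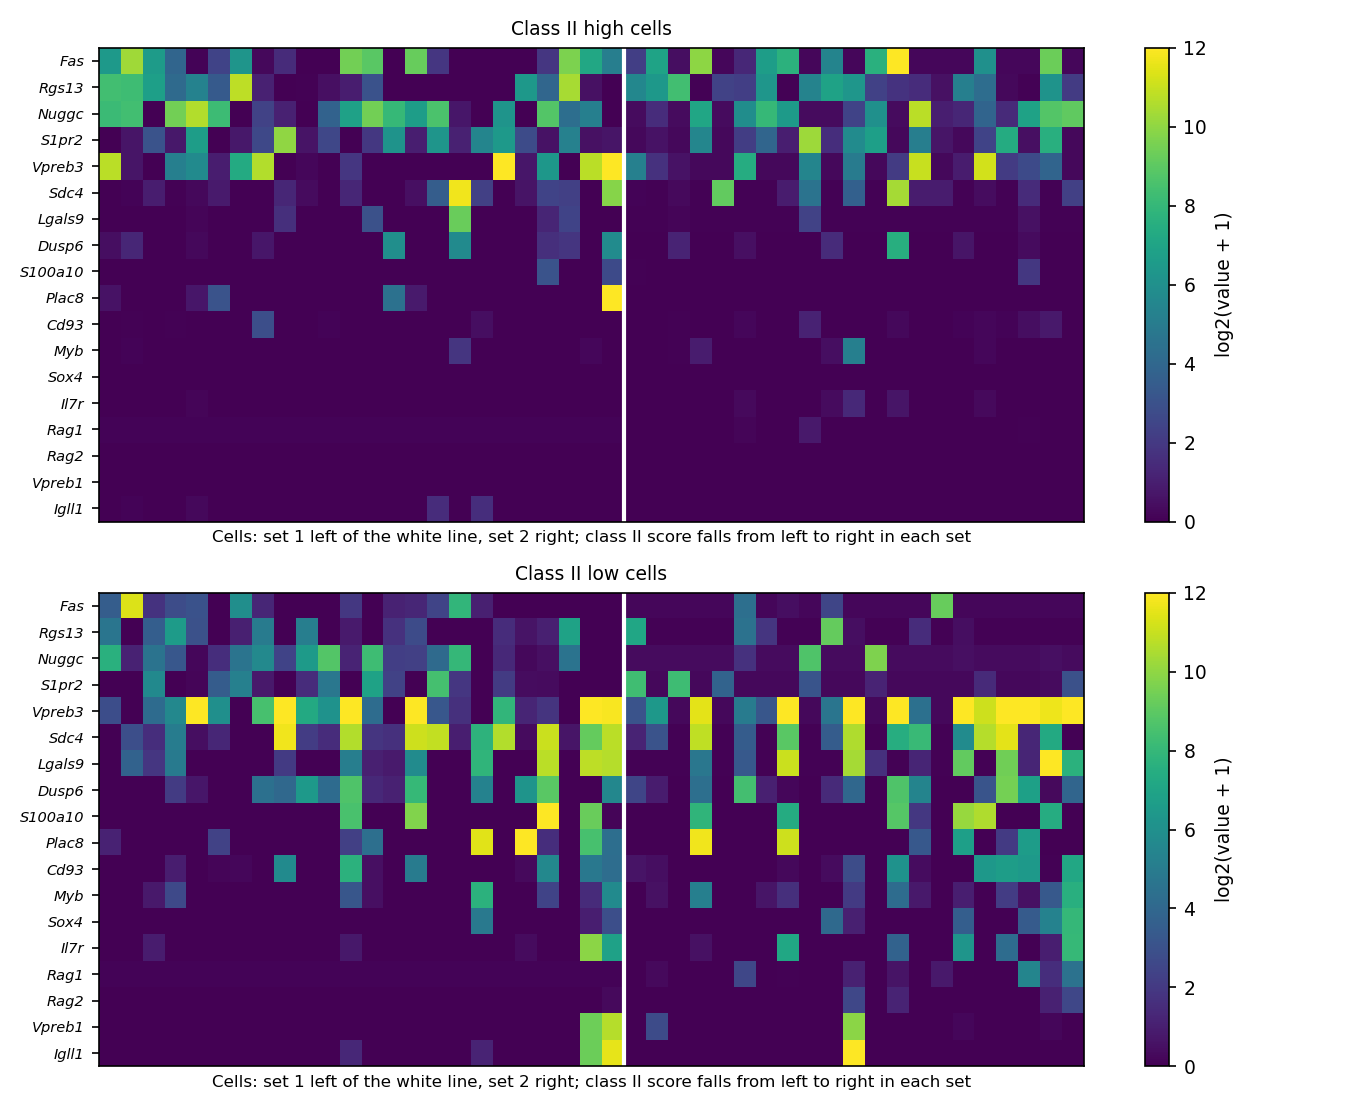
Values of 18 genes, as log2(value + 1) by colour from 0 to 12, in each of the 45 class II high cells (top) and the 45 class II low cells (bottom), ordered by falling class II score within set 1 (left of the white line) and set 2. Genes were chosen after their values were seen, and of the 14 low cells with 2 or more precursor genes, 3 have Fas and 2 have Rgs13.

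The comparison was repeated without the cells that had 2 or more precursor genes, an alternative added after the values were seen. With 43 high and 31 low cells, 187 genes were higher (3.46%) and 68 lower (1.26%), and 95 of the 142 earlier calls were kept. H2-DMb2 was then higher by 2.04 and 2.90, H2-Oa by 2.05 and 1.33, and H2-DMa by 2.57 and 0.77, which no longer passed in set 2. The partner chain genes went the other way in set 2, with H2-DMb1 at -0.55 and -1.09 and H2-Ob at 0.07 and -0.97. Ciita was at -0.19 and -0.96, and H2-Eb2 at 0.43 and 1.43. Fas was higher by 1.76 and 2.50 and Lcp1 by 2.45 and 2.19. The calls of Cd52 (4.20 and 0.08), Anxa2 (3.22 and 0.98), Nuggc (0.96 and 2.21), Ptprc (1.20 and 0.89) and Wdr1 (0.73 and 1.12) were lost with that of H2-DMa.

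Among the genes called lower, Vpreb3 was then lower, at -1.39 and -1.08, and Sdc4 at -1.75 and -1.58, while Lgals9 at -0.09 and -0.68 and S100a10 at -0.29 and -1.46 were no longer past the threshold. Vim (-0.55 and -1.05), Tug1 (-0.57 and -1.34), Marcks (-1.68 and -0.18) and Sumo3 (-0.58 and -2.15) lost their calls as well. Pax5 was lower, at -1.54 and -2.26. Without these cells, Fas and Sdc4 were thus still past the threshold in both sets, and Lgals9 was not.

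Zone and cell cycle lists were compared because class II presentation is placed in the light zone. Of 25 light zone genes compared, Cd83 and Cd52 were called higher and none lower, beside 1.78% and 0.851% of all genes, with list medians of 0.14 and 0.21. Cd52, a small surface glycoprotein, was 1.23, 1299 and 9497 in high cells, against 0, 199 and 6875 in low cells, and was higher by 2.94 and 1.24. Of 23 dark zone genes none passed in either direction, beside the same shares of all genes, with list medians of 0.26 and 0.47. The medians of both zone lists were thus on the same side of 0, beside -0.0015 and 0.048 over all genes compared. For genes that at least 25% of the cells had, the median of the mean difference was 0.097, so nothing is read from this shared sign.

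None of 39 S phase genes was called either way, beside 1.78% and 0.851% of all genes, so nothing is read from this count. Of 53 G2 and M phase genes 3 were called higher, Birc5, Cks2 and Tubb4b, beside 1.78% of all genes. By sign, 28 were positive in both sets and 5 negative in both, with no such share taken over all genes. Birc5, the mitotic regulator survivin, was higher by 2.14 and 2.26 and was detected in 26 high and 15 low cells. Mki67 was detected in 39 high and 35 low cells, with differences of -0.38 in set 1 and 1.42 in set 2.

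Of 46 genes of oxidative phosphorylation, 2 passed, beside 1.78% of all genes called higher. These were Atp5e (2.17 and 2.08) and Atp5k (1.78 and 2.38), both subunits of the mitochondrial ATP synthase. By sign, 25 of the 46 were positive in both sets and 3 negative in both. No such share was taken over all genes, so nothing is read from these counts by sign. Without the cells with 2 or more precursor genes, 15 of these 46 passed as higher and none as lower, beside 3.46% and 1.26% of all genes. Of 20 Myc and ribosome biogenesis genes, Cdk4 was called higher, beside 1.78% of all genes. Ncl, the nucleolar protein nucleolin (-1.45 and -1.19), and Mat2a, the enzyme that makes S-adenosylmethionine (-1.57 and -2.28), were called lower, beside 0.851% of all genes.

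At shares of 1.78% and 0.851% over all genes, lists of this size would hold few calls or none, and nothing is read from their counts. None of 9 glycolysis, 7 interferon response, 30 proteasome, 6 heavy chain constant or 7 follicular B cell genes was called, while of 15 heat shock genes Cct3 was called higher and of 18 co-stimulation genes Fas was.

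Heavy chain class was set by which constant gene held at least 50% of the summed constant signal of a cell. Class-switched cells were 12 of 43 high cells with enough signal, 27.9% (15.3 to 43.7), and 4 of 41 low cells, 9.76% (2.72 to 23.1). In set 1 the counts were 4 of 24 high cells and 4 of 22 low cells, and in set 2 8 of 19 high cells and 0 of 19 low cells, so the pooled difference rested on set 2. Ighm was dominant in 31 of 43 high and 34 of 41 low cells.

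Across all cells of a set the genes that ranked most like the class II score were weakly tied to it, among 659 genes detected in at least 50% of cells. The 5 with the highest mean Spearman rho were Lcp1 (0.25 in set 1 and 0.41 in set 2), Zbtb20 (0.27 and 0.31), Pik3c2b (0.22 and 0.36), H2-DMa (0.30 and 0.27) and Igj (0.31 and 0.26). The lowest were Sdc4 (-0.34 and -0.22), a row whose symbol had become a date, Tug1 (-0.26 and -0.22), Btg1 (0.00 and -0.48) and Unc93b1 (-0.22 and -0.25). All of these values are descriptions over cells, and all genes of a cell share its depth and normalization.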

How the data were processed

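Single-cell RNA-seq of 182 sorted cells was used. Its values, as deposited by the authors, are a normalized signal on a linear scale. Per the submitters' processing notes, TopHat2 2.0, Cufflinks 2.2 and Cuffdiff were used with the mm10 build; the starting unit, the annotation and the way of normalizing are not stated in the sources used here. The table has 17035 rows for 17034 symbols, 20 of them turned into dates. No read counts were used here, so no count model was run, and no doublet caller was run. The number of genes at a value of 1 or more ran from 1873 to 1946 in set 1 and from 995 to 1741 in set 2, and a gene's lowest value differed between set 1 and set 2, so every difference was taken within a set.

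Values were transformed as log2(value + 1), so differences of low genes are understated. A gene was detected at a value of at least 1, and genes detected in at least 10% of cells were compared, without the 4 score genes and Mir5107, which lies within Cd74. A call needed a difference of 1 or more in the same direction in both sets. Cells are not replicates, so no p-value was computed and SDs are spreads over cells. Shares carry exact 95% Clopper-Pearson intervals that cover counting error over cells only. The cells and the gene lists were chosen with earlier results of these data known. Named genes were all members of the 4 class II lists. Of each other list, up to 4 members with the largest difference shared by both sets were named. Also named were the 15 largest called differences each way and the 5 highest and 5 lowest rho with the score. Rows for Rik clones, small RNAs and numbered Gm genes were left out of the 15 largest. Other genes were named after their values were seen. Some genes that this rule names are not reported here. Alternatives in pseudocount, filter, threshold, group size, score genes, scaling, measure and set were computed. Python 3.11.15, pandas 2.3.3, NumPy 2.4.6, SciPy 1.17.1 and matplotlib 3.10.9 were used.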

Additional observations from a re-analysis of the deposited data

How the results depend on the processing

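Beside 96 genes higher and 46 lower in class II high cells, a pseudocount of 0.1 gave 258 and 129, and a pseudocount of 10 gave 23 and 9. A threshold of 0.5 gave 371 and 285, and a threshold of 2 gave 6 and 2. Taking the upper against the lower 50% of each set gave 24 and 17, and a difference of 20 percentage points in the share of cells gave 56 and 27, with 2 of the 142 calls in the opposite direction. Set 1 alone gave 432 and 293, and set 2 alone 469 and 341. Leaving out cells with 2 or more precursor genes gave 187 higher genes. The cause of these shifts was not tested.

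Leaving out the 2 low cells with the fewest genes, chosen after seeing the data, gave 95 and 53. The other alternatives stayed within 1.5 times both counts, but a count does not say which genes: leaving out 1 score gene kept 67 to 97 of the 142 calls, a term for genes above floor kept 95, and centring each cell on widely detected genes kept 64 and shifted the median of all genes to 0.11. No paired analysis was possible because each group is made of single cells with no replicate number shared between groups. Depth per cell is unknown, the number of mice is not given, and a gene at its floor may be present but not captured.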
